A study of Harpegnathos saltator with 75 samples.

Results

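Among 20659 gene models of the jumping ant Harpegnathos saltator, 109 were specific to the fat body at day 0 and differed between gamergate and worker fat body at day 10. They are a part of 339 fat-body-specific genes, of which the other 230 lay between the caste thresholds and serve as the comparison set below. Of the 109 genes, 58 were higher in day 10 gamergates and 51 were higher in day 10 workers. Specificity was measured as R, the log2 ratio of the mean fat body level to the higher of the brain and ovary means at day 0, and had to reach 3. The caste difference D was the log2 ratio of the day 10 gamergate to the day 10 worker fat body mean, and had to reach 0.8 in either direction. Levels are CPM, read counts brought to a common library size, with sizes scaled by TMM (trimmed mean of M values) over all 75 libraries and 5 CPM added to each mean for R and D.

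The fat body of insects stores lipid, glycogen and protein, and it makes most of the proteins of the blood. In females that lay eggs it also produces the yolk precursor that the ovary takes up. In this ant, workers that win a dueling tournament can mate and become gamergates, which lay eggs while the other workers do not.

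PolyA RNA was sequenced from the fat body, the ovary and the brain without its visual part. There were 5 libraries per group: day 0 (labelled worker caste), and day 3 and day 10 of the tournament in prospective workers and prospective gamergates. The labels name no genotype, agent or strain. They do not say whether replicates are separate ants or pools, so p-values measure the spread between libraries. Each library had 488892 to 4677916 reads in genes.

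The deposited table gives identifiers without gene names, and 0 of them matched the RefSeq gene table used here, so the genes below carry no names or roles and yolk protein could not be looked up. The tissue labels were therefore checked with sets of genes chosen by the same specificity measure. At day 0 the 230 other fat-body-specific genes held 25.7% ± 1.38 of fat body reads (SD, n = 5), 1.86% ± 0.363 of brain reads and 1.26% ± 0.0784 of ovary reads. Brain-specific genes (375) held 0.112% ± 0.0528 of fat body reads, and ovary-specific genes (77) held 0.0345% ± 0.00879. These shares are what the choice of the sets gives at day 0. At day 10 the brain-specific share of fat body reads was 0.134% ± 0.0327 in gamergates and 0.224% ± 0.0954 in workers. The ovary-specific share was 0.0485% ± 0.0309 in gamergates and 0.0590% ± 0.0183 in workers. At day 3 and at day 10 every worker library was on lane 1 and every gamergate library on lane 2, so caste and lane cannot be told apart in any caste comparison below. Day 3 libraries were all on one flow cell and day 10 libraries all on the other, so day and flow cell cannot be told apart in any change from day 3 to day 10. Day 0 libraries were on both. In fits with lane as a term, each lane of each flow cell was a level. At day 10 that term rests on day 0 library 3 (lane 1) and library 4 (lane 2). No other day 0 library of a tissue was on that flow cell.

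D ran from 0.80 to 6.61 among the genes higher in gamergates (median 1.58) and from -0.81 to -4.58 among those higher in workers (median -1.46). The difference passed 2 on the log2 scale, in either direction, for 21 and 14 genes. Median R was 4.32 and 4.47. Just inside the caste threshold lay HSALG012250.2 at D 0.80 and HSALG020288.1 at -0.81, and just outside lay HSALG002650.1 at 0.79 and HSALG008809.2 at -0.79. For specificity, HSALG029192.1 was just inside at R 3.02 and HSALG012096.1 just outside at 3.00 (2.995). In bulk tissue, fewer cells of a type and less RNA per cell cannot be told apart.

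The day 10 fat body libraries chose these genes, so their caste difference there is a description. The libraries of the castes did not overlap for 16 of the 58 genes and 12 of the 51, against 2.37% (higher) and 2.13% (lower in gamergates) of the 7941 genes tested. In the edgeR quasi-likelihood fit with Benjamini-Hochberg adjustment, 16 of the 57 gamergate-high genes that passed the filter on low counts were called higher and 16 of 50 worker-high genes lower. Across all genes tested 1.99% were called higher and 2.23% lower. Nothing is read from these shares, since the same contrast picked the genes. With lane as a term, 4 of the 109 were called. The total was 20 without worker library 1, 21 without gamergate library 1 or 4, and 52 with DESeq2. Leaving out any 1 day 10 fat body library kept the caste threshold for 37 of 58 and 35 of 51 genes. The other 21 and 16 fell below it without some single library. These include genes just past the threshold, such as HSALG012250.2 and HSALG020288.1. For 23 and 11 genes, 1 library held more than 50% of the sum of the higher day 10 group.

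**Figure D1:**
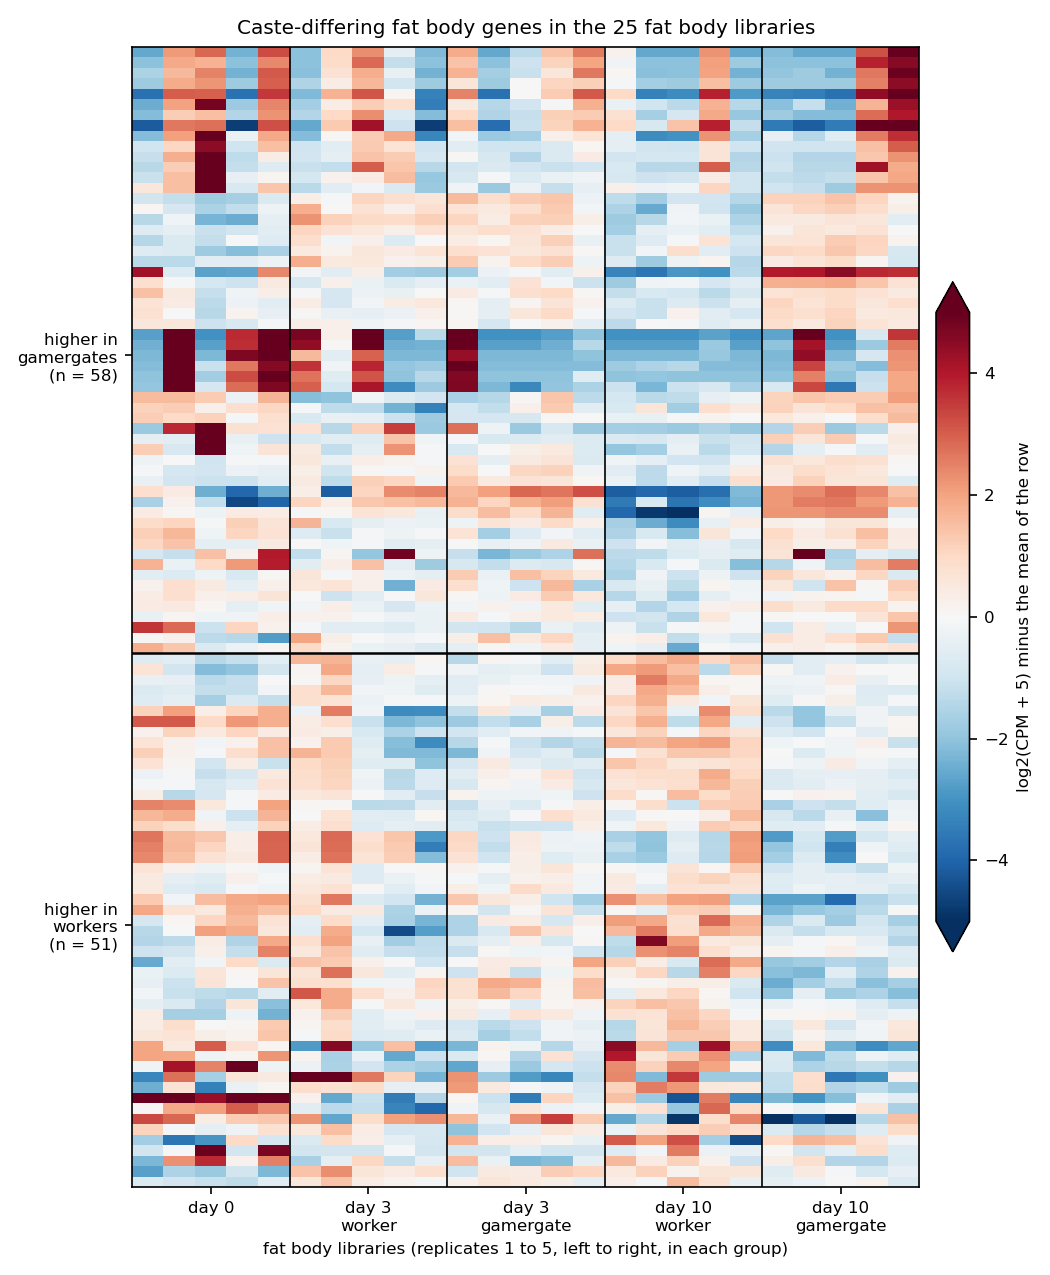
Levels of the 109 genes (rows, upper 58 higher in gamergates, lower 51 higher in workers) in the 25 fat body libraries (columns), as log2(CPM + 5) minus the row's mean. Blocks of rows that are red in a few libraries of several groups stand beside rows that separate the day 10 castes evenly.

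The gene with the largest D, HSALG013065.2, was at 1154, 1197, 1682, 1009 and 958 CPM in day 10 gamergate fat bodies and at 2.65, 1.06, 4.99, 4.07 and 23.9 CPM in workers (replicates 1 to 5 in order, as in all such lists). The castes were far apart, and worker 5 was the highest worker. At day 3 gamergates had 17.2, 56.1, 65.4, 44.9 and 84.9 CPM and workers 62.3, 46.0, 86.0, 17.3 and 16.4 CPM. The castes overlapped at day 3. At day 0 the libraries were at 1374, 41.5, 6.76, 6.99 and 385 CPM, so single day 0 libraries reached both the gamergate and the worker level of day 10. Its log2 fold change at day 3 was 0.25 (SE 1.00, edgeR adjusted p = 0.982). The change of its caste difference from day 3 to day 10 was 7.30 (SE 1.59, edgeR adjusted p = 0.0573) and did not pass the threshold.

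HSALG011967.1 ranked next by D, at 6.11, but it was on or off by library. Day 10 gamergates had 1.61, 1286, 0, 18.3 and 488 CPM, and workers 0, 0, 0, 1.36 and 0 CPM. Thus 2 of 5 gamergate libraries carried the group mean. At day 0 it was at 1.23, 4720, 0, 534 and 2491 CPM. At day 3 it was at 3017, 0, 0, 1.09 and 5.04 CPM in gamergates and 1105, 44.1, 2021, 1.02 and 10.9 CPM in workers. High libraries occurred in both castes at day 3 and at day 0. Without gamergate library 2 its D was 4.65.

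Among the worker-high genes, HSALG012147.1 had the most negative D. Day 10 workers were at 982, 128, 8.74, 839 and 106 CPM, and gamergates at 0, 57.2, 3.32, 0 and 2.08 CPM. The castes overlapped through worker 3 and gamergate 2. At day 0 it was at 166, 55.5, 345, 66.0 and 41.4 CPM. At day 3 it was at 3.81, 44.3, 31.0, 10.9 and 27.7 CPM in gamergates, and at 1.04, 1034, 6.62, 119 and 1.36 CPM in workers, where worker 2 stood apart. Its day 3 log2 difference was -3.23 (SE 1.45, edgeR adjusted p = 0.742).

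HSALG001278.2 had the next most negative D, at -3.79. It was at 357, 204, 292, 312 and 20.7 CPM in day 10 workers and at 6.44, 6.65, 0, 20.3 and 29.2 CPM in gamergates. Worker 5 fell among the gamergates. Day 0 libraries held 178, 62.2, 213, 273 and 292 CPM, which overlapped the day 10 workers and lay above all day 10 gamergates. The day 3 log2 difference was -0.61 (SE 0.84, edgeR adjusted p = 0.931).

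The most abundant gene of the set, HSALG009096.2, was at 1127400, 1105500, 1236500, 1245700 and 170410 CPM in day 10 gamergates and at 15772, 8463, 4186, 263130 and 180770 CPM in workers. Scaled values this high arise because the TMM factor was 0.357 to 0.403 in the 4 high gamergate libraries, so these are levels on a common scale and not shares of reads. Gamergate 5 lay within the range of the workers, and workers 4 and 5 lay far above workers 1 to 3. Day 3 gamergates had 459370, 706090, 462170, 778260 and 160790 CPM, and day 3 workers 227700, 261600, 384110, 348830 and 186890 CPM. At day 3, 4 of 5 gamergates were above all workers and gamergate 5 was below them. The day 3 difference was 0.86 (SE 0.76, edgeR adjusted p = 0.903).

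HSALG004477.1 came next in abundance among the gamergate-high genes, with D 0.87. Day 10 gamergates were at 52286, 56211, 49726, 65852 and 72692 CPM and workers at 37578, 32930, 7570, 44784 and 39672 CPM. The castes did not overlap. Without worker library 3 D was 0.62, below the threshold, so its membership rests on that library. Day 0 levels were 153300, 111600, 26341, 35852 and 47772 CPM, with both castes of day 10 inside that range except worker 3. At day 3 the log2 difference was -0.14 (SE 0.44, edgeR adjusted p = 0.976).

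HSALG002043.2 was the most abundant worker-high gene, and its largest difference was over time. Day 0 levels were 80159, 104940, 53103, 124670 and 136940 CPM. By day 3 it was at 2785, 1250, 225, 5506 and 1639 CPM in gamergates and 3056, 437, 1212, 228 and 953 CPM in workers. All day 3 libraries were far below all day 0 libraries, and the castes overlapped. Day 10 workers were at 7124, 730, 126, 15646 and 263 CPM and gamergates at 549, 322, 593, 2302 and 1783 CPM. The castes overlapped again, and worker 4 held 65.5% of the worker sum. D was -2.10, and -0.89 without that library. The day 3 log2 difference was 0.95 (SE 0.99, edgeR adjusted p = 0.916).

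HSALG010999.2, the next most abundant worker-high gene, was at 2842, 37962, 42669, 13942 and 9774 CPM in day 10 workers and at 8568, 7196, 9077, 6576 and 4883 CPM in gamergates. Worker 1 was below all gamergates, and the other workers were above them. Day 0 library 5, at 43197 CPM, held 67.8% of the day 0 sum, and the other day 0 libraries were at 3405 to 9267 CPM. The day 3 difference was -0.55 (SE 0.69, edgeR adjusted p = 0.927).

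Over days, the gamergate-high genes were at or above day 0 in most gamergate means and below it in most worker means, and the worker-high genes showed the mirror pattern. Relative to the day 0 mean, the median log2 difference of the 58 genes was 0.60 in day 10 gamergates and -1.33 in day 10 workers. In 28 of them gamergates were above day 0 and workers below. In 23 both castes were below day 0, and in 7 both were above. For the 51 worker-high genes the median was -1.0 in day 10 gamergates and 0.73 in day 10 workers. Here 24 genes had gamergates below and workers above day 0, 16 had both below and 11 had both above. Day 0 and day 10 fat body libraries both entered the choice of genes, so these levels carry no test. The day 0 means rest on few libraries for many genes: 1 library held more than 50% of the day 0 sum for 22 gamergate-high genes, library 3 in 10 of them, and for 9 worker-high genes.

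At day 3 no member passed the test of the caste difference in the fat body. By edgeR 0 of the 57 gamergate-high and 0 of the 50 worker-high genes that passed the filter were called, against 0% higher and 0.0504% lower of all genes tested. At an unadjusted p below 0.05 there were 4 and 5 of them, beside 508 of all 7941 genes, and DESeq2 called 1 of the 109. The median log2 difference was 0.18 for the gamergate-high genes and -0.36 for the worker-high genes, beside -0.04 for the other fat-body-specific genes and -0.03 for all genes tested. The first median was -0.02 without gamergate library 1, and the second was -0.03 without worker library 2. In the day 3 means, 37 of 58 gamergate-high genes were above 0 and 36 of 51 worker-high genes below 0. In the fit, 37 of 57 and 17 of 50 were above 0. Beside them stood 93 of 204 other fat-body-specific genes and 3694 of all 7941 genes. Without gamergate library 1, 28 of 58 gamergate-high genes were above 0 in the fit. Without worker library 2, 22 of 50 worker-high genes were. From day 3 to day 10 the shift of the caste difference was called for 0 members, against 0.0882% (upward) and 0.0756% (downward) of all genes. At an unadjusted p below 0.05 there were 18 and 19 members, beside 963 of all 7941 genes. The members' day 10 libraries also entered the choice of genes.

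Within the set, genes differed in whether the castes or single libraries separated them. The members were grouped by average linkage on log2 levels over the 25 fat body libraries, at a correlation of 0.7. This was done after the values were seen, and the correlations are descriptions over libraries that share group and lane. The 58 gamergate-high genes gave 7 groups of at least 3 genes, holding 42 of them, and the 51 worker-high genes gave 7 such groups holding 23.

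A group of 6 gamergate-high genes that includes HSALG013065.2 separated the day 10 castes in every member. Its median level was 1664, 1611, 2019, 1622 and 1260 CPM in day 10 gamergates and 284, 659, 682, 449 and 589 CPM in workers. All gamergates were above all workers. Day 3 medians were 494 to 1084 CPM in gamergates and 636 to 799 CPM in workers, and day 0 medians 420 to 1407 CPM.

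The largest group, of 14 gamergate-high genes, separated the castes in none of its members. Its median level was 1.61, 0.665, 0, 189 and 429 CPM in day 10 gamergates and 22.5, 1.59, 2.5, 90.3 and 1.09 CPM in workers. Gamergates 4 and 5 were high and the other 3 were near 0, and worker 4 was high among the workers. Day 0 libraries gave 0.614, 67.4, 565, 0.777 and 119 CPM. The level passed 50 CPM in 3 day 0, 1 day 3 worker, 1 day 3 gamergate, 1 day 10 worker and 2 day 10 gamergate libraries. Only 4 of these 14 genes kept the caste threshold without any single day 10 library.

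The 6 genes that vary with HSALG011967.1 were high in the same few libraries. Their median passed 50 CPM in 3 day 0, 2 day 3 worker, 1 day 3 gamergate, 0 day 10 worker and 2 day 10 gamergate libraries. Day 10 gamergates gave 0.806, 538, 0, 6.09 and 151 CPM, and this median was at 1.36 CPM or less in every day 10 worker. HSALG007987.1, a member of the group named after its values were seen, was graded rather than near 0, at 32.9, 11.3, 32.5, 40.7 and 20.7 CPM in day 10 workers. None of the 6 separated the day 10 castes, although each kept the threshold without any 1 library. The median correlation within the group was 0.97, and 3 of its members carry consecutive identifiers (HSALG023304.1, HSALG023305.1 and HSALG023306.1, chosen after their values were seen). Reads shared between near-identical copies would also give such a correlation, which was not tested.

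A group of 3 worker-high genes, HSALG020048.1, HSALG020049.1 and HSALG013067.2 (the second named after its values were seen), was high in day 10 worker library 5. HSALG020048.1 was at 55.2, 30.7, 98.6, 50.2 and 586 CPM in day 10 workers and at 32.2, 66.5, 8.30, 118 and 88.6 CPM in gamergates. Apart from worker 5 the castes overlapped, and none of the 3 genes kept the caste threshold without any single library. HSALG020048.1 and HSALG020049.1 have consecutive identifiers and a correlation of 0.98, and whether they share reads was not tested.

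The largest worker-high group, of 5 genes, had medians of 3396, 8772, 7560, 3201 and 2728 CPM in day 10 workers and 1349, 2060, 2227, 1614 and 1573 CPM in gamergates. All workers were above all gamergates at the median, and 2 of the 5 members separated the castes singly. At day 3 the medians were 1672 to 8048 CPM in workers and 1169 to 3570 CPM in gamergates, which overlapped.

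**Figure D2:**
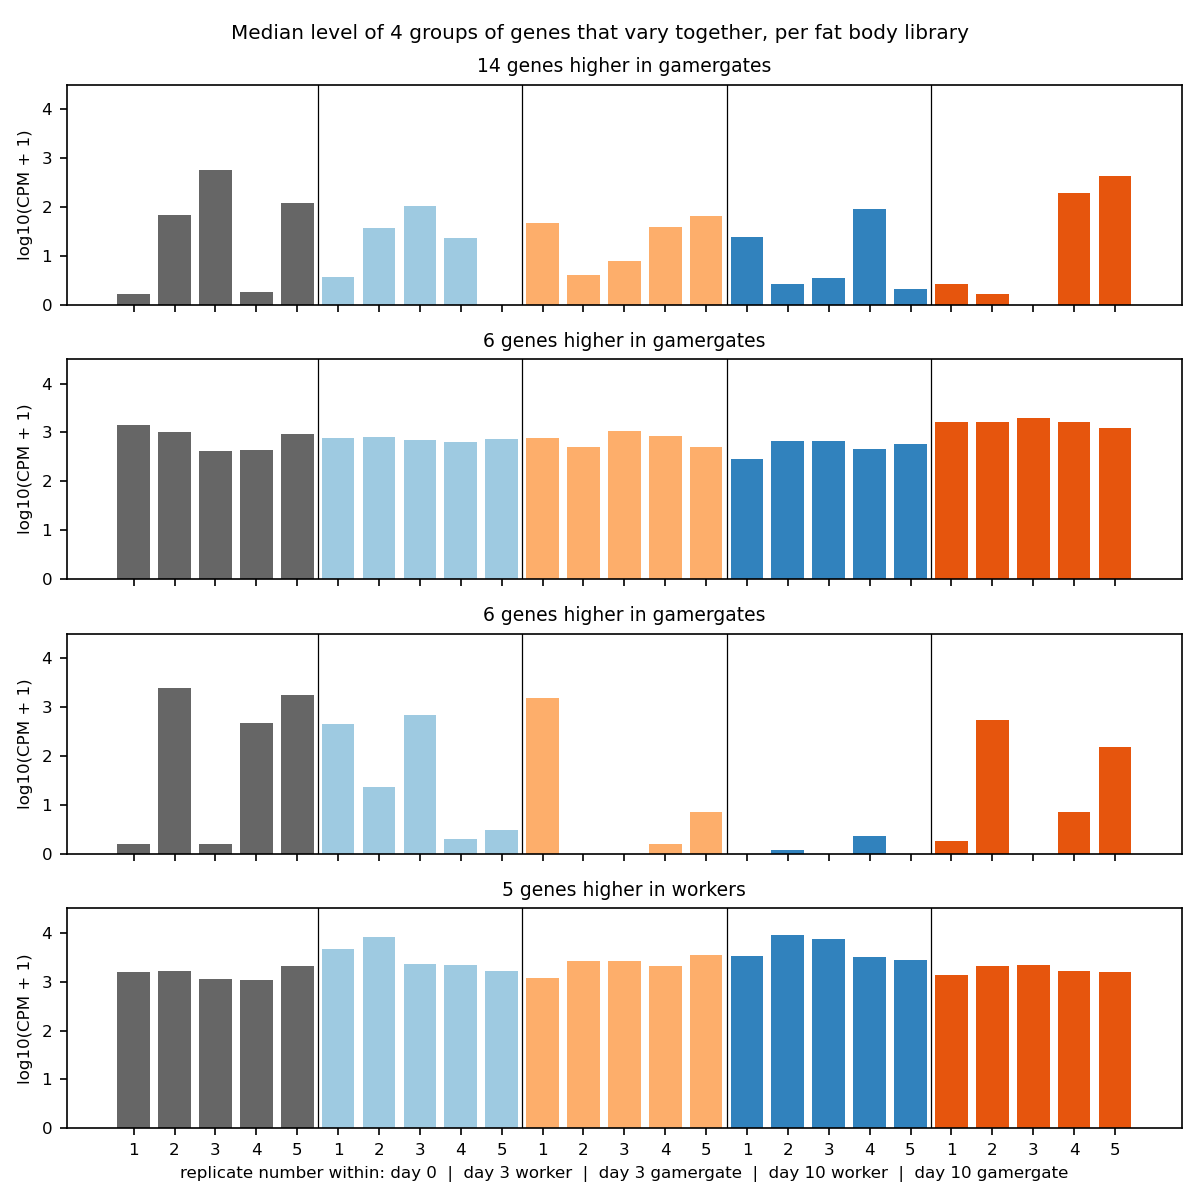
Median level of 4 groups of genes, as log10(CPM + 1), in each of the 25 fat body libraries. The first group (14 genes) and the third (6 genes) are high in a few libraries of several groups, whereas in the other groups of 6 and 5 genes the medians of the day 10 castes do not overlap.

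Consecutive identifiers occurred 11 times among the 109 genes, 8 of them within a class. The table gives no coordinates, so whether such genes are neighbours is not known. Opposite directions also occurred within a pair, as for HSALG005766.2 (worker-high) and HSALG005767.2 (gamergate-high), which had a correlation of -0.49 over the 25 fat body libraries (named after their values were seen).

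HSALG009096.2 held most of the members' reads in day 10 gamergates 1 to 4. The 58 gamergate-high genes held 47.6%, 49.1%, 48.6%, 49.3% and 17.5% of assigned reads in day 10 gamergate fat bodies and 5.57%, 3.82%, 2.34%, 19.1% and 15.7% in workers. Gamergate 5 fell within the range of workers 4 and 5. Without HSALG009096.2 the other 57 held 4.20%, 4.55%, 4.11%, 4.81% and 7.62% in gamergates and 4.33%, 3.29%, 2.05%, 4.41% and 4.19% in workers, which overlapped. The 51 worker-high genes held 1.49%, 1.60%, 1.64%, 1.47% and 2.16% in gamergates and 6.57%, 10.0%, 10.5%, 7.46% and 5.48% in workers, with no overlap.

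A share falls when another gene takes more reads, so the scaled sums are given beside them. The other 57 gamergate-high genes summed to 109080 to 134890 CPM in day 10 gamergates and 29502 to 79140 CPM in workers. The worker-high genes summed to 37352 to 45608 CPM in gamergates and 83723 to 158250 CPM in workers. Both sums separated the castes, as the choice of genes favours. For the other fat-body-specific genes the sums were 406660 to 571490 and 314710 to 500080 CPM and overlapped.

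At day 0 the gamergate-high genes held 21.5% ± 2.26 and the worker-high genes 9.01% ± 2.56 of fat body reads (SD, n = 5). At day 3 the gamergate-high share was 31.3% ± 9.08 in gamergates and 22.6% ± 5.00 in workers, a difference within the spread of the libraries. The worker-high share at day 3 was 2.61% ± 0.418 in gamergates and 3.67% ± 2.01 in workers. As scaled sums the worker-high genes were at 105280 to 248230 CPM at day 0, at 37042 to 57821 CPM in day 3 gamergates and at 30686 to 122050 CPM in day 3 workers. Day 3 gamergates lay below all day 0 libraries, and day 3 worker 2 lay within their range.

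**Figure D3:**
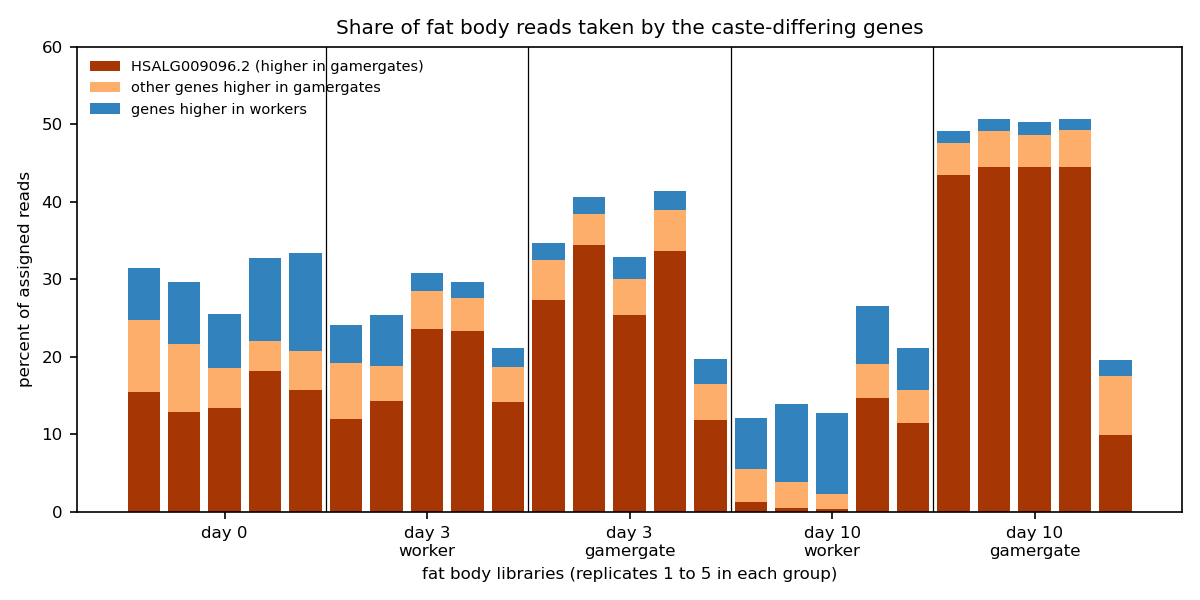
Percent of assigned reads held by HSALG009096.2, by the other gamergate-high genes and by the worker-high genes in each fat body library. Day 10 gamergates 1 to 4 stand near 50% in total, whereas gamergate 5 and the day 10 workers stand much lower.

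Fat body specificity was measured again in the 30 day 3 libraries, which had no part in the choice. Against the brain, 50 of 52 gamergate-high and 48 of 49 worker-high genes that passed the filter were higher in the fat body (edgeR adjusted p below 0.05), beside 33.7% of 10537 genes tested. Their median log2 differences were 5.71 and 6.09, against -0.24 for all genes. Against the ovary 49 of 52 and 49 of 49 were higher, beside 34.0% of genes tested, with medians of 5.07 and 7.39. Of the other fat-body-specific genes, 202 of 203 were higher against the brain and 199 of 203 against the ovary. The retained specificity is thus not particular to the members. The members passed the filter largely through the fat body libraries, in which they are high, and 6 gamergate-high and 2 worker-high genes did not pass.

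The smallest adjusted p against the brain among gamergate-high genes were those of HSALG012866.1 and HSALG010778.1. Their log2 differences were 7.77 (SE 0.26, edgeR adjusted p = 2.57e-21) and 6.81 (SE 0.24, edgeR adjusted p = 7.85e-21). In day 3 brains they were at 0 to 5.54 and 0.709 to 5.69 CPM, so they did not pass the filter through the brain. Since the fat body could carry a gene past the filter, the p-values in this paragraph are descriptions and nothing is read from them. HSALG004106.2 and HSALG028931.1 had the smallest adjusted p of their class against the ovary, with differences of 7.18 and 5.64 (edgeR adjusted p = 1.61e-22 and 3.73e-22). Among worker-high genes HSALG009742.1 was 8.28 above the ovary (SE 0.30, edgeR adjusted p = 1.45e-20).

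HSALG025565.1 went the other way. It was lower in day 3 fat body than in brain (log2 difference -0.97, SE 0.40, edgeR adjusted p = 0.0262), as were 45.4% of genes tested. At day 0 its fat body level was 4.91, 4.44, 1102, 5.44 and 1.72 CPM. Library 3 alone made it fat-body-specific by the rule. The call against the brain ended in workers alone (-0.49, edgeR adjusted p = 0.388) and in 3 of 20 fits that left out 1 library: gamergate fat body 5, worker fat body 2 or worker brain 4 (-0.92, -0.85 and -0.80).

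In the brain at day 10, several gamergate-high genes were higher in gamergates. By edgeR, 4 of the 29 that passed the filter were higher in gamergate brains and 0 lower, against 0.182% of 9886 genes called higher and 0.0607% called lower. The median log2 difference of the 29 was 0.57, that of the other 148 fat-body-specific genes 0.33 with 3 called higher, and that of all genes 0.02. The median of the 148 fell to 0.10 without gamergate brain 5, and that of the 29 to 0.41. Of the 26 worker-high genes that passed, 0 were called by edgeR (5 at an unadjusted p below 0.05, beside 511 of all 9886 genes), with a median of -0.24. That median was 0.01 without worker brain 2. The castes did not overlap, with gamergates higher, for 7 of the 29 genes and 11 of the 148, against 1.08% of all genes tested. With gamergates lower, they did not overlap for 2 of the 26 worker-high genes and 0 of the 148, against 72 of all 9886 genes. A gene could pass the filter through the caste in which it is high, which favours a difference, and 29 and 25 members did not pass. DESeq2 called 7 members, and edgeR with lane as a term called 1.

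HSALG007590.2 was at 9.62, 9.67, 9.90, 6.07 and 10.3 CPM in day 10 gamergate brains and at 2.5, 1.81, 1.43, 1.12 and 0.680 CPM in workers. All gamergates were above all workers, at low levels. The log2 difference was 2.5 (edgeR adjusted p = 0.00576), and under the lane term it was 3.50 (SE 0.88, edgeR adjusted p = 0.282). It did not pass the filter without gamergate brain 2 or 5, so it passed through the caste in which it is high and nothing is read from its test.

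HSALG012049.2 was at 25.7, 27.5, 28.9, 19.4 and 25.9 CPM in gamergate brains and at 10.5, 10.5, 12.9, 11.2 and 10.9 CPM in worker brains. The workers were tightly grouped below all gamergates. The log2 difference was 1.24 (edgeR adjusted p = 0.0074), and under the lane term it was 1.69 (edgeR adjusted p = 1).

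The other called genes were HSALG009096.2 and HSALG001632.1, which vary together in the fat body. HSALG009096.2 was at 11604, 17504, 9770, 12795 and 7791 CPM in day 10 gamergate brains and at 736, 147, 401, 2284 and 632 CPM in workers. Day 0 brains ranged from 115 to 3096 CPM. Its log2 difference was 3.83 at day 10, and 0.23 with lane as a term. At day 10 that term rests on day 0 brains 3 and 4, which were at 115 and 1457 CPM for this gene. HSALG001632.1 was at 22.5, 30.5, 24.7, 25.5 and 46.0 CPM in gamergates and at 3.49, 2.90, 4.30, 8.95 and 0.680 CPM in workers. Its log2 fold change of 3.10 turned to -4.86 (SE 2.41, edgeR adjusted p = 1) with lane as a term, and the call ended without 4 single libraries.

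Levels of other fat body genes in the same brains are given beside these values. The other fat-body-specific genes summed to 19205, 21322, 19013, 19969 and 35386 CPM in day 10 gamergate brains and to 16869, 20316, 15890, 17396 and 14240 CPM in workers. Gamergate brain 5 was the highest and had the lowest HSALG009096.2 of the gamergates, and the other 4 gamergates overlapped the workers. It was also the lowest in brain-specific genes, at 69664 CPM, where the other 4 were at 116340 to 137830 CPM. Gamergate fat body 5 was likewise the lowest of its group in HSALG009096.2, at 170410 CPM. The labels do not say that a number marks the same ant across tissues. Gamergate-high genes without HSALG009096.2 summed to 2919, 3487, 2959, 3070 and 5523 CPM in gamergates and 2268, 2397, 2064, 2472 and 1730 CPM in workers, so the castes did not overlap. Worker-high genes summed to 2830 to 3414 CPM in gamergates and 2273 to 5950 CPM in workers. The part of fat body RNA in the brain differences was not tested.

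At day 3 edgeR called 0 members in the brain, as for all genes (0% in either direction). At an unadjusted p below 0.05 there were 5 of 29 gamergate-high genes and 0 of 26 worker-high genes, beside 126 of all 9886 genes, and DESeq2 called 0 members. The medians were 0.31 and 0.01, beside 0.14 for the other fat-body-specific genes.

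In the ovary at day 10 a large share of all genes differed between castes, and members were called in both directions. Of 40 gamergate-high genes that passed the filter, 14 were called higher and 11 lower, and of 31 worker-high genes 5 were called higher and 16 lower (edgeR adjusted p below 0.05). Across the 9150 genes tested 22.6% were called higher and 21.5% lower in gamergates. The other fat-body-specific genes gave 30 higher and 58 lower of 159. The medians were -0.05 for gamergate-high, -1.97 for worker-high and -0.27 for the other fat-body-specific genes, beside 0.01 for all genes. A lane term left 0 members called, and fitting only the day 10 groups left 29. The filter could be passed through either caste, and 18 and 20 members did not pass.

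Among the gamergate-high genes, HSALG011967.1 was on in some gamergate ovaries and near 0 in workers. It was at 5.75, 1760, 815, 1233 and 1.47 CPM in gamergate ovaries and 0.624, 0.519, 0, 0 and 0 CPM in worker ovaries. Gamergates 2, 3 and 4 were high, and gamergates 1 and 5 were within a few CPM of the workers. Its call (edgeR adjusted p = 0.00111) rests on these 3 libraries, and a fold against so few worker reads depends on the fit. At day 3, worker ovary 1 was the highest, at 659 CPM, while gamergates stayed at 1.45 CPM or less.

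HSALG010778.1, a member of the group that separated the castes in the fat body, was at 36.7, 33.7, 30.9, 34.2 and 13.2 CPM in gamergate ovaries and at 18.7, 8.83, 12.1, 9.37 and 14.0 CPM in workers. Gamergate 5 lay among the workers. The log2 difference was 1.18 (SE 0.26, edgeR adjusted p = 0.00134), and 0.32 (edgeR adjusted p = 0.929) with lane as a term.

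Other members ran against their fat body direction. HSALG011172.2, with a higher mean in gamergate fat body, was at 2.88, 3.84, 3.37, 5.92 and 11.2 CPM in gamergate ovaries. Worker ovaries were at 85.5, 70.1, 52.3, 31.9 and 22.5 CPM. The castes did not overlap in the ovary. The log2 difference was -3.23 (SE 0.56, edgeR adjusted p = 0.000205). In the fat body the castes overlapped for this gene, and its D of 0.83 fell to 0.63, below the threshold, without gamergate library 2. For HSALG028931.1 the fat body D was 1.17, without overlap. HSALG028931.1 was also lower in gamergate ovaries (-0.88, SE 0.23, edgeR adjusted p = 0.00389), at 42.2 to 64.1 against 58.1 to 150 CPM, ranges that overlap.

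Conversely, HSALG020048.1 and HSALG013067.2, with higher means in worker fat body, were higher in gamergate ovaries. Without day 10 worker fat body 5 their D was 0.09 and 0.06, so their fat body direction rests on that library. HSALG013067.2 was at 43.1, 28.4, 36.0, 28.9 and 5.87 CPM in gamergates and at 2.71, 1.04, 2.80, 0.625 and 3.10 CPM in workers. The log2 differences were 1.93 for HSALG020048.1 and 3.73 for HSALG013067.2 (SE 0.52 and 1.03, edgeR adjusted p = 0.00572 and 0.00656).

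Worker-high genes kept their direction in HSALG003879.2 and HSALG008695.2. The fat body D of HSALG003879.2 was -0.84, and -0.45 without day 10 worker fat body 3, which did not reach the threshold. That of HSALG008695.2 was -1.77, and -1.55 or further from 0 without any single library. The castes overlapped in the fat body for both. HSALG003879.2 was at 13.7, 13.0, 12.4, 17.1 and 16.6 CPM in gamergate ovaries and at 89.5, 54.0, 115, 29.4 and 28.7 CPM in workers. Workers 1 to 3 were the highest, and all workers were above all gamergates. The log2 difference was -2.13 (SE 0.38, edgeR adjusted p = 0.000263). For HSALG008695.2 it was -2.53 (SE 0.47, edgeR adjusted p = 0.000343), with 1.44 to 8.31 CPM in gamergates and 10.1 to 27.9 CPM in workers.

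The worker ovary libraries also differed among themselves in other tissues' genes. Worker-high genes summed to 6469, 6514, 5517, 2154 and 1644 CPM in worker ovaries and to 1573, 1631, 1608, 1590 and 1975 CPM in gamergate ovaries. Workers 1, 2 and 3 were far above the gamergates, worker 4 was slightly above them and worker 5 was within their range. The other fat-body-specific genes summed to 18494, 17160, 13912, 8619 and 9905 CPM in workers against 8913 to 11940 CPM in gamergates, and brain-specific genes to 4376, 3426, 4633, 2700 and 2005 CPM against 1878 to 2405 CPM. Ovary-specific genes were at 16983, 14789, 13470, 23809 and 26707 CPM in workers against 19775 to 51743 CPM in gamergates. Workers 1, 2 and 3 were thus high in the genes of both other tissues and low in ovary genes, and the part of this in the members' ovary differences was not tested.

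At day 3 edgeR called 0 members in the ovary, as for all genes (0% in either direction). At an unadjusted p below 0.05 there were 6 of 40 gamergate-high and 8 of 31 worker-high genes, beside 362 of all 9150 genes, and DESeq2 called 1 member. The medians were -0.15 and -0.86, beside -0.25 for the other fat-body-specific genes, and the worker-high median was -0.08 without worker ovary 2. The change of the ovary caste difference from day 3 to day 10 was called upward for 5 gamergate-high genes, downward for 1 gamergate-high gene and downward for 5 worker-high genes. Across all genes it was called for 11.4% upward and 8.59% downward.

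**Figure D4:**
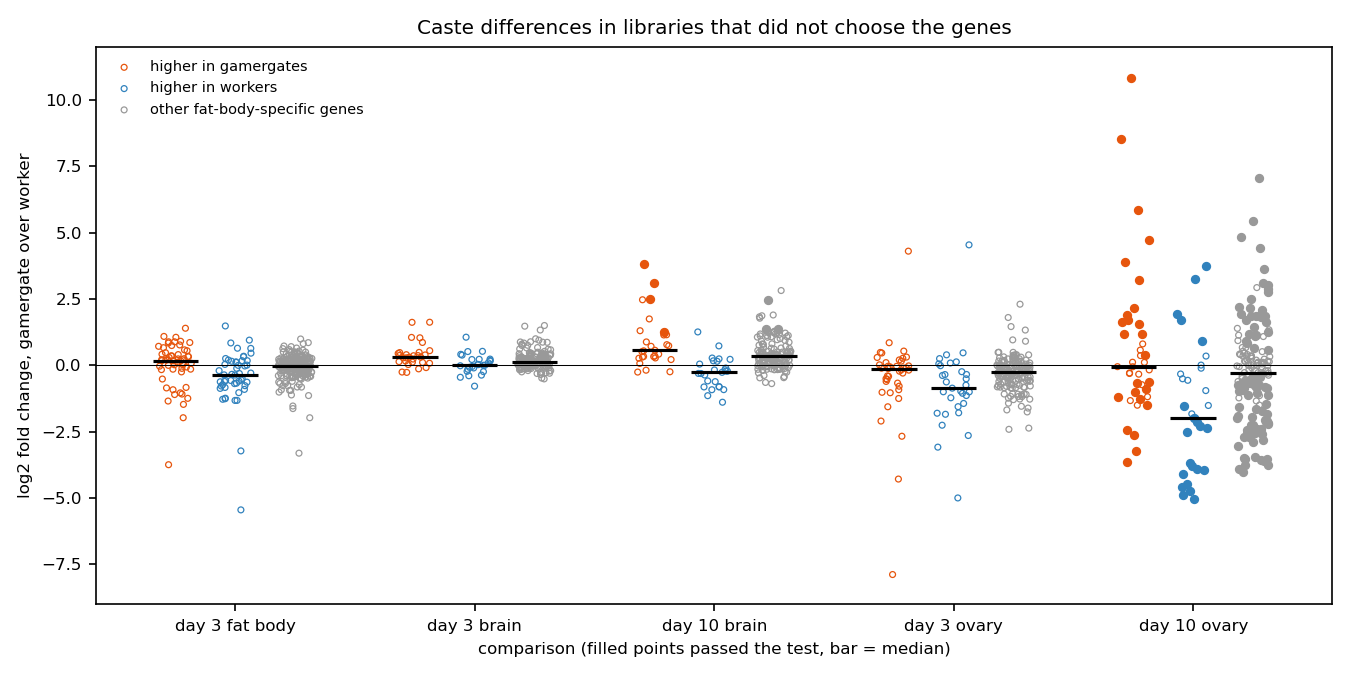
Log2 fold change, gamergate over worker, of the members and of the other fat-body-specific genes that passed the filter in each comparison the choice of genes did not use. Points are genes, filled where the edgeR adjusted p was below 0.05, and bars are medians. At day 3 the medians of the gamergate-high and worker-high genes are 0.18 and -0.36 in the fat body, 0.31 and 0.01 in the brain and -0.15 and -0.86 in the ovary. Gamergate-high genes lie mostly above 0 in the day 10 brain, and both classes spread widely in the day 10 ovary.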

How the data were processed

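The authors deposited raw read counts per gene model, which are whole numbers with no normalization. Trimming used Trimmomatic, alignment STAR 2.5.3a and counting HTSeq, per the submitters' processing notes. Build, annotation and strand setting are not given in the sources, so antisense, overlapping and near-identical genes could not be told apart. HTSeq's 5 summary rows stayed out of library sizes. Reads outside genes made up 20.7% to 67.7% of a library.

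Tests used edgeR 4.0.16 in R 4.3.3 (filterByExpr with minimum count 10 and minimum total 15, TMM, robust quasi-likelihood fit, Benjamini-Hochberg over all genes tested, threshold 0.05). Each tissue was fitted on its 25 libraries, and the tissue contrasts on the 30 day 3 libraries, with 1 coefficient per group. SE was taken back from the test (log2 fold change over the root of F, unsigned). The scripts were tested on simulated data. DESeq2 1.42.0, RLE scaling, no filter, a lane term, a replicate block, the 2 groups alone and leaving out each library were alternatives.

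The members, lists and alternatives were chosen with earlier results of these data known. Genes were printed by these rules: per class, the 2 with the largest D, the 2 most abundant in the fat body, those at the thresholds, and at most 2 called per direction in each comparison the choice did not use, by smallest adjusted p. For the day 10 brain, all 4 called members were printed. No names or sequences were used.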

Additional observations from a re-analysis of the deposited data

Results flagged for a closer look

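Of 79 groups of 5 libraries checked, 16 held a library that stood apart from the other 4 by Dixon's test. Independent, normally distributed values pass its cutoff in about 1 group in 20. CPM of genes near 0 are not so distributed, and several groups share libraries. No excess is therefore read from this count. In the fat body these were, for HSALG013065.2, day 0 library 1 (1374 CPM) and day 10 worker 5 (23.9 CPM). For HSALG011967.1 they were day 3 gamergate 1 (3017 CPM) and day 10 worker 4 (1.36 CPM, where the other workers had 0). For HSALG009096.2 it was day 10 gamergate 5 (170410 CPM). For HSALG012147.1 they were day 3 worker 2 (1034 CPM) and day 10 gamergate 2 (57.2 CPM). For HSALG001278.2 it was day 3 worker 2 (450 CPM), and for HSALG010999.2 day 0 library 5 (43197 CPM).

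Day 10 gamergate fat body 5 also stood apart in the share of reads of gamergate-high genes (17.5%), of worker-high genes (2.16%) and of HSALG009096.2 alone (9.85%).

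In the brain, HSALG007590.2 was low in day 10 gamergate 4 (6.07 CPM) and HSALG009096.2 was high in day 10 worker 4 (2284 CPM). In the ovary, day 10 gamergate 5 was low for HSALG010778.1 (13.2 CPM) and high for HSALG008695.2 (8.31 CPM).

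The ovary caste difference changed between day 3 and day 10 (edgeR test of the change itself) for HSALG003879.2 (log2 -1.78, SE 0.54, edgeR adjusted p = 0.0257) and HSALG008695.2 (-2.19, SE 0.65, edgeR adjusted p = 0.0245). It also changed for HSALG011967.1 (18.72, edgeR adjusted p = 0.0042), where groups near 0 reads make the fitted size dependent on the fit.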

How the results depend on the processing

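Of 184 alternative values for the counts of members or of members called, 171 stayed within 1.5 times the main count. The 171 include the day 3 caste comparisons in which both counts were 0. They also include the day 3 tissue contrasts, in which nearly all members tested were called. The total therefore says little of the day 10 caste counts, which are given below. With a pseudocount of 1 CPM the gamergate-high set held 90 genes, among them all 58. Leaving out 1 fat body library gave 47 to 67 gamergate-high and 47 to 55 worker-high genes. Members called at day 10 in the fat body numbered 32, against 52 with DESeq2, 4 with lane as a term and 20 to 35 with 1 library left out. In the day 10 brain the 4 became 7 with DESeq2, 1 with lane as a term and 2 to 5 with 1 library left out. In the day 10 ovary the 46 became 29 in the 2 groups alone, 0 with lane as a term and 36 to 49 with 1 library left out. DESeq2 called 1 member in the day 3 fat body and 1 in the day 3 ovary, where edgeR called 0.

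Not every same-numbered pair of libraries correlated above 0.1: deviations gave -0.632 to 0.446 between castes within a tissue and -0.097 to 0.359 between tissues within a caste at day 3. The day 3 worker pairs of fat body with brain or ovary were all positive, at 0.052 to 0.341. The labels do not say that a number marks one ant, so pairing is not settled and the replicate block is an alternative. With the number as a replicate block, 27, 6 and 44 members were called in the day 10 fat body, brain and ovary, and 0 in each at day 3.

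Of 422 alternative values for single genes, 20 lost their call and 1 turned direction: HSALG001632.1 in the day 10 brain, at -4.86 with lane as a term. The lane term had a level for each lane of each flow cell. At day 10 it rests on day 0 library 3 (lane 1) and library 4 (lane 2). Those day 0 brains were at 0 and 18.6 CPM for HSALG001632.1. Values with this term therefore cannot say what part lane has in a caste difference. HSALG009096.2 in the day 10 brain also lost its call without a filter (edgeR adjusted p = 0.0531). Members with too few reads in a tissue did not pass the filter there, so depth limits what is said of them in brain and ovary.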
